A study of Mus musculus with 4 samples.

Results

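Medullary thymic epithelial cells (mTECs) are sorted to study how the thymus displays the body's own proteins, and 34 genes of the fibroblast and of the extracellular matrix were followed here through libraries of such cells. The genes were chosen by name, with earlier results of these data known. The count table held 23366 gene symbols, of which 17866 had a count in a pool, and all 34 genes were among those with a count. They encode 5 fibrillar collagen chains, 2 basement membrane collagen chains, 3 collagen VI chains, 5 small proteoglycans and associated proteins, 7 microfibril and elastic fibre proteins, 4 matrix glycoproteins, 6 protease inhibitors and secreted regulators, and 2 PDGF receptors. RNA was sequenced from mTECs of wild-type C57BL/6 mice aged 6 to 8 weeks, with no treatment named in the labels, in 2 pools from females and 2 pools from males. Each pool held mTECs of 10 mice, so that the spread between pools is not the spread between animals. The sort gate was PI- CD45- MHCII+ Ly51low, and how far it kept fibroblasts out was not tested. The reads that fell on genes came to 3508921 and 1976272 for female pools 1 and 2, and to 7103627 and 3344471 for male pools 1 and 2. The mTEC genes Aire and Fezf2, which encode regulators of tissue-specific antigens (TSAs), averaged 24.9 and 11.6 normalized CPM over the 4 pools. Ccl21a, a chemokine gene of less mature mTECs, had 0 counts in every pool. Whether that 0 reflects absent transcript or reads not assigned to the gene was not tested. Normalized CPM are counts divided by the size of their library, after TMM factors were applied for its composition. A gene listed at 0 could still have had up to 3 counts by counting error, equal to 0.815 and 1.48 normalized CPM for female pools 1 and 2 and to 0.358 and 1.16 for male pools 1 and 2.

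The extracellular matrix is the network of fibres and gel that fibroblasts and other mesenchymal cells lay down around tissues. Fibrillar collagens form its cables, type IV collagen its sheets under epithelia and vessels, and fibrillins with their partners form the microfibrils that carry elastin. Small proteoglycans coat and space the collagen fibres, metalloproteinases cut the network, and TIMP proteins hold those enzymes in check. In the thymus, fibroblasts of the capsule and septa and the cells around vessels are the classical makers of matrix, whereas PDGF receptors mark mesenchymal cells and not epithelium. mTECs are also known to transcribe genes of many other tissues at a low level.

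Most of these genes were transcribed at a low level in the mTEC pools, and most of their reads came from a small group of secreted regulators. Levels were compared between genes per length, as RPKM, that is, normalized CPM divided by the exon length in kilobases. On that scale the mean RPKM over the 4 pools was highest for Gsn, which encodes the actin-severing protein gelsolin, at 91.3 ± 19.9 (SD, n = 4 pools). It was followed by Mgp, which encodes the calcification inhibitor matrix Gla protein, at a mean RPKM of 48.4 ± 65.6, and by the metalloproteinase inhibitor gene Timp2 at 31.0 ± 18.8. The proteoglycan gene Dcn came next with a mean RPKM of 19.9 ± 12.2, and Serpinf1, which encodes the anti-angiogenic factor PEDF, had 16.5 ± 7.83. Neighbours in this order from Gsn to Serpinf1 did not differ in RPKM beyond their spread over the pools. Sparc, a collagen-binding glycoprotein gene, had a mean RPKM of 4.88 ± 2.83, and Timp1 had 2.91 ± 4.13. These 7 genes lay above the median RPKM of 1.89 over 16677 genes with a count and a length, and the other 27 lay below it. Timp1 did so through male pool 2 alone, at an RPKM of 9.11. It had 0.918 and 0.557 in female pools 1 and 2 and 1.08 in male pool 1. Gsn stood at percentile 95.4 of those genes by mean RPKM and Dcn at percentile 85.2. By contrast, the type I collagen genes Col1a1 and Col1a2, which dominate the RNA of matrix-forming fibroblasts, had a mean RPKM of only 0.369 ± 0.215 and 0.210 ± 0.182. The fibroblast receptor gene Pdgfra was the lowest of the 34, with a mean RPKM of 0.00887 ± 0.0177 and 2 counts in all, both in male pool 1. The same 8 genes led the order when the longest transcript replaced all exons as the length.

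**Figure D1:**
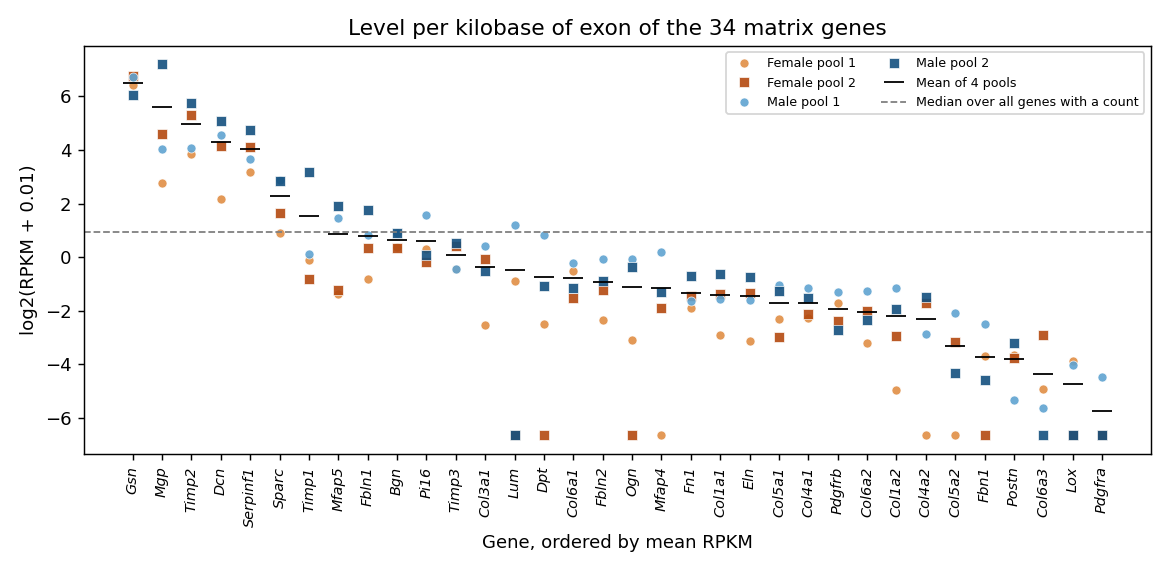
Level of each of the 34 matrix genes in each pool, as log2(RPKM + 0.01), with genes ordered from left to right by mean RPKM, dashes for the mean of 4 pools and a dashed line for the median over all genes with a count. Points at the bottom are pools with 0 counts. Gsn, Mgp, Timp2, Dcn, Serpinf1, Sparc and Timp1 lie above the line by their mean, and the collagen genes lie below it.

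Summed over the 34 genes, the matrix transcripts took 401 and 651 normalized CPM in female pools 1 and 2, and 609 and 756 in male pools 1 and 2, so that the sexes overlapped. Gsn alone made up 47.4% of that sum over the pools. Without Gsn and Timp2, the 2 genes with the most reads, the remaining 32 genes summed to 78.6 and 156 normalized CPM in the female pools against 215 and 340 in the male pools. For these alone the sexes did not overlap, and with only Gsn left out they still did. The number of matrix genes with a count was 30 and 28 in the female pools against 34 and 30 in the male pools. Over all genes the male pools also had more, with 16523 and 15747 genes with a count against 15223 and 14895 in the female pools. Depth differed, and at 1.48 normalized CPM, the level of 3 counts in the shallowest pool, 14 and 16 matrix genes were above it in the female pools against 27 and 24 in the male pools. The number of all genes above that level was not counted. In bulk RNA of pooled cells, more cells of a matrix-forming type and more matrix RNA in each cell cannot be told apart.

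The question of the study was whether sex changes gene expression in mTECs, and across the 34 genes the male pools tended to hold the higher values. The male mean was above the female mean in 30 of 34 matrix genes (88.2%), against 56.3% of the 17866 genes with a count. Both male pools lay above both female pools in 13 of the 34 genes (38.2%), against 11.7% of genes with a count and 9.47% of the tested genes. These 13 were the collagen genes Col1a2, Col5a1 and Col4a1, the proteoglycan and associated genes Dcn, Bgn, Ogn and Dpt, the microfibril and fibulin genes Fbln1, Fbln2, Mfap4 and Mfap5, and Sparc and Timp1. Counts behind this order were small: 11 of the 13 had over 3 counts in both male pools, and 5 had over 3 counts in all 4 pools. Both male pools lay below both female pools only for Col6a3, with 5 counts in all, against 10.2% of genes with a count. Within a pool number, 30 of the 34 genes were higher in male pool 1 than in female pool 1 and 25 were higher in male pool 2 than in female pool 2, against 49.5% and 49% of genes with a count. The highest pool was male pool 1 for 18 genes, male pool 2 for 13, female pool 2 for 2 and female pool 1 for 1, against 24.3%, 34.7%, 22% and 19.1% of genes with a count. With 1 pool left out, which makes the order easier to meet, 16 matrix genes without female pool 1 and 23 without female pool 2 had the male pools on top, against 25.4% and 26% of genes with a count. Leaving out male pool 1 or male pool 2 gave 22 matrix genes each time, against 38.4% and 32.2%. This order by pool is a description, and the genes share libraries and are not independent. The list was also chosen with earlier results of these data known, so the shares over all genes are no test of it.

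**Figure D2:**
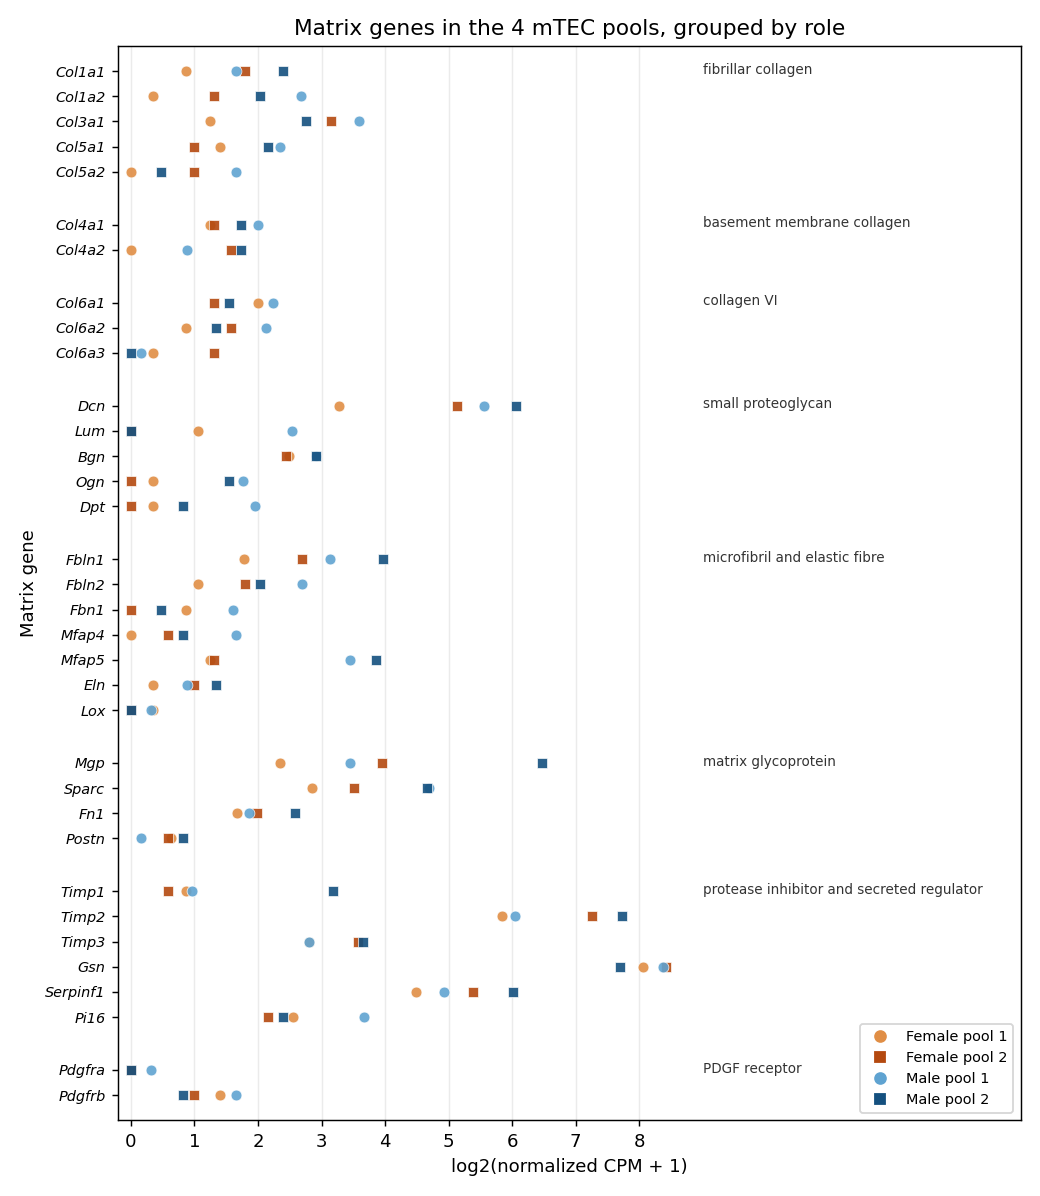
The 34 matrix genes on the vertical axis, grouped by role, with their level in each pool as log2(normalized CPM + 1) on the horizontal axis. Orange points are female pools, blue points male pools, circles pool 1 and squares pool 2. The blue points lie to the right of both orange points in 13 rows, among them Dcn, Mfap5 and Sparc.

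Promoter sequence is shown for 3 of the genes that the comparisons turned on, Sparc and Fbln1 for the order of the sexes and Timp2 for the difference between pool numbers. Of the 34 genes, 23 matched a RefSeq promoter on GRCm38.p6, and Mfap5, Dcn and Mgp were not among them. Each sequence is the 250 bases before the RefSeq start, 5′ to 3′ on the strand of the gene, and capitals mark letters that match any of 3 motifs on either strand. The androgen receptor, the factor whose action on mTECs the study examined, recognizes repeats of the letters AGAACA. The core promoter element near many starts was searched as TATAAA. The element bound by Sp1 was searched as GGGCGG, and no matches overlapped in these sequences. The Sparc window lies at chr11:55420081-55420330 on the minus strand, that of Fbln1 at chr15:85205699-85205948 on the plus strand and that of Timp2 at chr11:118355412-118355661 on the minus strand.
Sparc: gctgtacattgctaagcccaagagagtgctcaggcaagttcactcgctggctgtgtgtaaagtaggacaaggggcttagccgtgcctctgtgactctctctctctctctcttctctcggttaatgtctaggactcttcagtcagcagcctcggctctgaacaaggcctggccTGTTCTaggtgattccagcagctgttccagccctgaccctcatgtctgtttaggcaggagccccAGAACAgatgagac
Fbln1: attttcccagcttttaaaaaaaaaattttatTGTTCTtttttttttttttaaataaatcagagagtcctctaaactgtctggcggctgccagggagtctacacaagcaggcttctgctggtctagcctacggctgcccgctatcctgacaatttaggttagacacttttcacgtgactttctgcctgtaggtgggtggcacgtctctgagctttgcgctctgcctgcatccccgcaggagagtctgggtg
Timp2: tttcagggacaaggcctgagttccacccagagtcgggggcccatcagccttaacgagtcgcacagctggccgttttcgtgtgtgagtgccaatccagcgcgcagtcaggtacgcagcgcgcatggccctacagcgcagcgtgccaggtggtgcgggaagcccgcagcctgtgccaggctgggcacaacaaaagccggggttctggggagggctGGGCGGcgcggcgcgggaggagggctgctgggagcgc
The Sparc window held AGAACA on the given strand and, as TGTTCT, on the other strand, and the Fbln1 window held TGTTCT. In Sparc the 2 matches stood well apart from each other. The Timp2 window, at 68.0% G and C against 54.0% in Sparc and 46.4% in Fbln1, held GGGCGG. The letters AGAACA were present on either strand in 4 of 23 matrix genes (17.4%: Bgn, Fbln1, Pi16 and Sparc), close to its share of 18.2% over the 27025 genes of the promoter table. TATAAA was present in 3 of 23 matrix genes (13%) against 14.3% of genes, and GGGCGG in 12 of 23 (52.2%) against 35.4%. A gene with several listed starts was counted when any of them matched, and a match describes letters, not a bound site.

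Fibrillar collagen genes summed to 4.08 and 13.9 normalized CPM in female pools 1 and 2, and to 24.7 and 16.9 in male pools 1 and 2. Col3a1, the type III chain of pliable tissues, supplied 43.7% of this, with 1.36 and 7.92 normalized CPM in the female pools against 11 and 5.78 in the male pools. Its sexes overlapped, because female pool 2 lay above male pool 2. Col1a1 had 0.815, 2.47, 2.15 and 4.24 normalized CPM in female pools 1 and 2 and male pools 1 and 2, from 3, 5, 18 and 11 counts. Its partner chain Col1a2 had 0.272 and 1.48 normalized CPM in the female pools against 5.38 and 3.08 in the male pools. The male pools were thus on top for Col1a2 but not for Col1a1, where female pool 2 passed male pool 1. Col5a1, a type V chain that starts fibril assembly, had 1.63 and 0.990 normalized CPM in females and 4.06 and 3.47 in males, without overlap. Col5a2 had 0, 2, 18 and 1 counts in the same order. Col5a2 and Col3a1 are neighbours on chromosome 1 (NCBIM37), Col3a1 at 45368383 to 45406551 (plus strand) and Col5a2 at 45431166 to 45560127 (minus strand), and both were highest in male pool 1.

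Few reads came from the sheet-forming and beaded collagens. Col4a1 and Col4a2, the ubiquitous type IV chains of basement membranes, lie head to head on chromosome 8 and share 22 exonic bases on opposite strands. Col4a1 had 1.36 and 1.48 normalized CPM in the female pools against 2.99 and 2.31 in the male pools, whereas Col4a2 had 0, 4, 7 and 6 counts, which did not separate the sexes. Col6a1, a chain of the beaded filaments around cells, had 2.99 and 1.48 normalized CPM in female pools 1 and 2 and 3.70 and 1.93 in male pools 1 and 2. In Col6a1 the pools of number 1 were the higher ones in both sexes. Col6a2 had 3, 4, 28 and 4 counts, and Col6a3, which is needed for the same filaments, had 1, 3, 1 and 0, at or under the limit of a count of 0 in every pool.

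Most reads of the small proteoglycan group came from Dcn, which encodes decorin, a protein that binds type I collagen and spaces its fibrils. Dcn (chromosome 10, 96942245 to 96980777, plus strand) had 8.70 and 34.1 normalized CPM in female pools 1 and 2 and 45.9 and 65.5 in male pools 1 and 2, from 32, 69, 384 and 170 counts. Males averaged 55.7 ± 13.8 normalized CPM and females 21.4 ± 18 (SD over 2 pools of each sex). Both male pools lay above both female pools, but female pool 2 was nearer to male pool 1 than to female pool 1. Bgn, which encodes the related biglycan, had 4.62 and 4.45 normalized CPM in the female pools against 6.57 and 6.55 in the male pools. The groups of Bgn did not overlap, and pools of the same sex were nearly equal. Lum, the lumican gene that follows Dcn on chromosome 10, had 4, 0, 40 and 0 counts, and so was seen only in the pools of number 1. Ogn (osteoglycin) had 1, 0, 20 and 5 counts and Dpt (dermatopontin) had 1, 0, 24 and 2. In Ogn and Dpt the female pools were at or under 3 counts, so no fold is given.

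The summed level of microfibril and elastic fibre genes did not overlap between the sexes, at 6.25 and 10.9 normalized CPM in the female pools against 28.4 and 33.9 in the male pools. Singly, 4 of the 7 genes had both male pools above both female pools. The sums of fibrillar collagen, basement membrane collagen, small proteoglycan and matrix glycoprotein genes did not overlap either. Mfap5, which encodes a microfibril-associated glycoprotein, had 1.36 and 1.48 normalized CPM in the female pools against 9.92 and 13.5 in the male pools. Fbln1, which encodes the elastic fibre and basement membrane protein fibulin-1 (chromosome 15, 85036379 to 85116965 on NCBIM37, plus strand), had 2.45 and 5.44 normalized CPM in females and 7.77 and 14.6 in males. Neither Mfap5 nor Fbln1 overlapped between the sexes, and in both the highest pool was male pool 2. Fbln2 had 1.09 and 2.47 normalized CPM in the female pools against 5.50 and 3.08 in the male pools, again without overlap. Mfap4 had 0, 1, 18 and 2 counts, and Fbn1, the gene of the microfibril backbone fibrillin-1, had 3, 0, 17 and 1. Most counts of Mfap4 and Fbn1 came from male pool 1, the deepest library. For Fbn1, 20.1% of the exonic bases overlap a gene on the opposite strand, and how the counting treated strands is not stated in the sources used here. Eln, which encodes elastin itself, had 1, 2, 7 and 4 counts, and Lox, the enzyme gene that crosslinks elastin and collagen, had 1, 0, 2 and 0.

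Sparc encodes osteonectin, a glycoprotein that chaperones collagen outside the cell (chromosome 11, 55208002 to 55233582 on NCBIM37, minus strand, 10 exonic blocks). Sparc had 6.25 and 10.4 normalized CPM in the female pools against 24.9 and 24.3 in the male pools, from 23, 21, 208 and 63 counts. The male pools were nearly equal and lay above both female pools, with means of 24.6 ± 0.42 in males and 8.32 ± 2.93 in females (SD, n = 2 pools each). Mgp (chromosome 6, 136820957 to 136824326, minus strand) had 4.08 and 14.4 normalized CPM in female pools 1 and 2 and 9.92 and 87.4 in male pools 1 and 2. Its high male mean of 48.7 ± 54.8 normalized CPM (SD, n = 2 pools) thus came from male pool 2, and male pool 1 lay below female pool 2. Fn1, which encodes fibronectin, had 2.17, 2.97, 2.63 and 5.01 normalized CPM in the same order, with overlapping sexes. Postn, which encodes periostin of wounded and dense connective tissue, had at most 2 counts in a pool.

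The inhibitors and secreted regulators took the most reads of any role, and of the 6 genes Timp1 was the only one whose sexes did not overlap. Gsn (chromosome 2, 35111927 to 35163420, plus strand) had 266 and 342 normalized CPM in female pools 1 and 2 and 329 and 207 in male pools 1 and 2. Male pool 2 was the lowest and female pool 2 the highest, so the sexes overlapped. Timp2 (chromosome 11, 118162383 to 118217054 on NCBIM37, minus strand, 6 exonic blocks) had 56.5 and 152 normalized CPM in the female pools against 65.0 and 210 in the male pools. Both pools of number 2 were far above both pools of number 1, and within a number the sexes differed less than the numbers did. Serpinf1 had 21.5, 40.6, 29.4 and 63.9 normalized CPM in female pools 1 and 2 and male pools 1 and 2, also with the pools of number 2 on top. Timp3 had 5.98, 10.9, 5.97 and 11.6 in the same order, and 21.3% of its exonic bases overlap Syn3 on the opposite strand, which makes its level uncertain. Timp1, the family member induced by inflammatory signals, had 3, 1, 8 and 21 counts. Pi16, a marker gene of adventitial fibroblasts, had 4.89 and 3.46 normalized CPM in the female pools against 11.7 and 4.24 in the male pools. Pi16 was high in male pool 1 alone. The PDGF receptor genes were near the limit of detection: Pdgfrb, the receptor of perivascular cells, had 6, 2, 18 and 2 counts, and Pdgfra had 0, 0, 2 and 0.

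When the sexes were compared over 10865 genes with the quasi-likelihood test of edgeR and Benjamini-Hochberg adjustment, no matrix gene passed an adjusted p of 0.05 in either direction. Only 14 of the 34 passed the filter on low counts, and the 20 others were not tested. The count was 0 of 14, and over all tested genes it was 0 of 10865 (0%), with a smallest adjusted p of 0.186. The study itself reported genes induced in males at a false discovery rate under 0.05, among them genes of the Y chromosome. The fit used here called no gene at all, so its 0 of 14 does not show that the sexes were equal. By edgeR's exact test 1 matrix gene passed, Mfap5, with no filter on low counts 2 did, Mfap5 and Mgp, and by DESeq2 0, against 8 of 10865, 26 of 17866 and 3 of 10865 genes. With pool number as a replicate block 3 did, Dcn, Mfap5 and Mgp, against 17 of 10865 genes. Nothing says that the numbers pair the pools. An unadjusted p under 0.05 was reached by 3 of the 14, Mfap5, Sparc and Fbln1, all higher in males, against 48 of 10865 genes (0.442%), of which 35 were higher in males (0.322%). Mfap5 passed the filter through the male pools alone, and without it the unadjusted count was 2 of 13. The log2 fold change of male over female was 3.01 for Mfap5 (standard error 0.54), 1.59 for Sparc (0.40) and 1.53 for Fbln1 (0.60). Dcn had a log2 fold change of 1.41 (0.61), Mgp of 2.44 (1.05), Serpinf1 of 0.59 (0.49) and Bgn of 0.53 (0.47). For Timp2 it was 0.39 (0.68), for Timp3 0.04 (0.54) and for Gsn -0.18 (0.42), each smaller than its standard error. In the quasi-likelihood test on all 4 pools without a block, the adjusted p of every gene in this paragraph was 1. Over the 14 tested matrix genes the median log2 fold change was 0.773, with 13 above 0, against a median of 0.027 and 53.2% above 0 over all tested genes. Without Mfap5 the median was 0.59, with 12 of 13 above 0. With a pool left out the number of matrix genes past the threshold moved. Between 2 and 9 matrix genes entered those fits through male pools alone, as Mfap5 did in the main fit. The genes past the threshold were not only these, and included genes of the main fit such as Sparc. Such a fit has a single pool of the sex concerned, which is assumed to vary like the others, so that number is not read. The sign held for Mfap5 (2.80 to 3.21), Sparc (1.24 to 1.99), Fbln1 (1.01 to 2.18), Dcn (0.70 to 2.69), Bgn (0.51 to 0.56) and Mgp in all 4 fits with a pool left out, though the value of Mgp was 0.21 once male pool 2 was dropped and up to 3.57 otherwise. It turned in at least 1 of these fits for Timp2, Timp3, Gsn and Serpinf1, which had -0.04 without male pool 2.

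**Figure D3:**
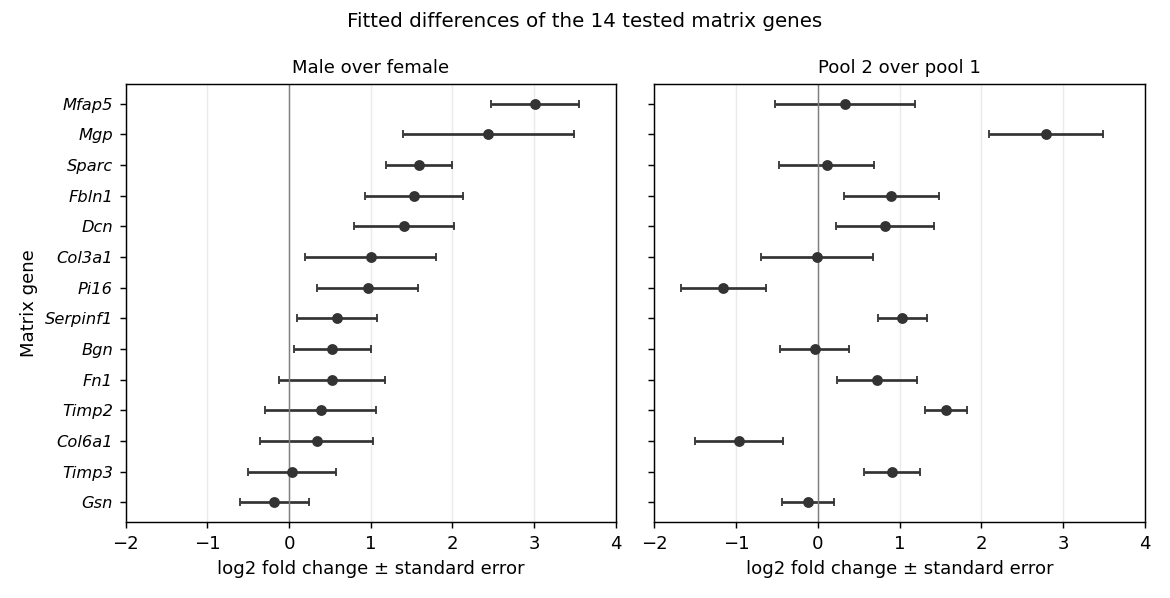
Fitted log2 fold change ± standard error of the 14 tested matrix genes, male over female on the left and pool 2 over pool 1 on the right, from edgeR's quasi-likelihood fits on the same 4 pools. On the left 13 of 14 points lie above 0 and none passed an adjusted p of 0.05. On the right Timp2 passed.

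The pools are also numbered 1 and 2 in each sex, and the values of Timp2, Serpinf1 and Timp3 lay higher in both pools of number 2. Timp2 was higher in pool 2, with a log2 fold change of pool 2 over pool 1 of 1.57 (standard error 0.26, adjusted p = 0.0391, edgeR's quasi-likelihood test), and was the only matrix gene past the threshold in this fit. That is 1 of 14 tested matrix genes, against 221 of 10865 genes (2.03%), 202 of them higher (1.86%) and 19 lower (0.175%). Without female pool 1 the log2 fold change of Timp2 was 1.47, and without male pool 1 it was 1.67, but Timp2 did not pass in either fit. It passed in all 7 alternatives that kept all pools. With no filter 5 of the 34 matrix genes passed, against 1504 of 17866 genes. These were Timp2, Mgp, Serpinf1 and Timp1, higher in pool 2, and Lum, lower. Of the 14 tested, 4 passed with sex as a term, 3 by the exact test and 2 on library sizes alone. The counts over all 10865 genes were 807, 1138 and 764. DESeq2 and upper-quartile normalization gave 1 of 14 each, against 651 and 215 genes. Among genes above 1 CPM in 2 or more pools it was 1 of 27, against 253 of 12924. Mgp passed in 7 of the 11 alternatives that gave a p. Mgp had a log2 fold change of 2.79 (0.70, adjusted p = 0.0666), which was 0.94 without male pool 2, Serpinf1 of 1.03 (0.30, adjusted p = 0.0884) and Timp3 of 0.91 (0.34, adjusted p = 0.157). Unadjusted, 4 of the 14 were higher in pool 2 at a p under 0.05, against 14.4% of tested genes (23.7% in either direction), and 0 were lower. Mfap5, Sparc, Bgn and Gsn had log2 fold changes of 0.33 (0.86), 0.11 (0.58), -0.04 (0.42) and -0.12 (0.32), each smaller than its standard error. Over all 34 genes, both pools of number 2 lay above both pools of number 1 in 8 genes and below them in 6, against 24.4% and 21.7% of genes with a count, so neither count was above that share. Of the 14 tested genes, 9 had a log2 fold change above 0, against 47.9% of tested genes, but 7 of 14 did on library sizes alone, 13 of 27 among genes above 1 CPM in 2 or more pools and 15 of 34 with no filter. The meaning of the number is not stated in the sources used here. The fits of sex and of pool number use the same 4 pools.

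The machinery that makes and turns over matrix was read from lists of other genes. Of 20 genes of collagen processing, 11 were tested and none passed the threshold between the sexes. Ppib and P4hb, chaperone and prolyl hydroxylase subunit genes of every secretory cell, took the most reads, with means of 379 and 349 normalized CPM. Loxl2, a crosslinking enzyme gene, averaged 127, with 79.6 and 73.2 in female pools 1 and 2 and 65.6 and 288 in male pools 1 and 2. Per length, the mean RPKM was 395 for Ppib, 122 for P4hb and 1.79 for Serpinh1, against 0.776 for Col3a1. Serpinh1, which encodes the collagen-specific chaperone HSP47, had 1.63, 4.95, 3.94 and 6.93 normalized CPM in female pools 1 and 2 and male pools 1 and 2. The male mean was above the female mean in 15 of the 20, against the 56.3% of all genes with a count. Among 15 matrix protease genes, 6 were tested and none passed between the sexes, while Mmp2, a gelatinase gene whose enzyme TIMP-2 binds, was higher in pool 2 with a log2 fold change of 1.46 (standard error 0.28, adjusted p = 0.0451 by edgeR's quasi-likelihood test). Mmp2 had 9.79 and 27.2 normalized CPM in female pools 1 and 2 and 12.4 and 34.7 in male pools 1 and 2, the same order of pools as Timp2. Mmp14, the membrane protease that activates the Mmp2 product, took the most reads of its list at a mean of 53.5 normalized CPM, and its log2 fold change of pool 2 over pool 1 was 1.06 (0.28, adjusted p = 0.0727). Of 15 genes of PDGF and TGF-beta ligands and receptors, 6 were tested, none passed between the sexes, and the ligand gene Pdgfa was higher in pool 2 (log2 fold change 1.88, standard error 0.32, adjusted p = 0.0391 by the same test).

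Basement membrane genes, matrix receptors and the other collagen chains were read in the same way, and no gene of the lists from collagen processing to receptors had an unadjusted p under 0.05 between the sexes. Of 20 basement membrane genes, 4 were tested and none passed in either comparison. Nid1, the nidogen gene and the one with the most reads, had 29.1 and 14.8 normalized CPM in the female pools against 21.6 and 8.47 in the male pools. A male mean above the female mean was seen in 11 of the 19 with a count, close to the 56.3% of all genes with a count. Of 19 matrix receptor genes, 12 were tested and none passed in either comparison. Sdc4, Cd44 and Itgb1, which took the most reads, had means of 167, 163 and 158 normalized CPM and are used by epithelial and blood cells as well. Both male pools lay above both female pools in 6 of the 19, in 5 of the 20 collagen processing and in 4 of the 15 protease genes. They lay below in 2, 3 and 1 of these, and the shares over genes with a count were 11.7% and 10.2%. In the basement membrane list they lay above in 1 and below in 4. The 34 collagen chain genes outside the members were taken by symbol, and some of them, such as Col15a1, Col18a1 and Col14a1, also stand in the other lists. Of these 29 had a count, 16 had a male mean above the female mean (no more than the 56.3%), and Col27a1 took the most reads at a mean of 6.99 normalized CPM.

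Markers of other cells were read beside the matrix genes. Of 17 other fibroblast markers, 14 had a male mean above the female mean and 7 had both male pools above both female pools, against 30 and 13 of the 34 matrix genes and 56.3% and 11.7% of all genes with a count, and their summed levels were 2130 and 1490 normalized CPM in the female pools against 1590 and 2390 in the male pools. Ly6a, which encodes the surface protein Sca-1 of many cell types, made up 94.8% of that sum. Thy1, which thymocytes carry as well as fibroblasts, had 4.89 and 7.92 normalized CPM in the female pools against 16 and 18.5 in the male pools, and its log2 fold change by sex was 1.45 (standard error 0.43, adjusted p = 1). Cd248, the endosialin gene of stromal fibroblasts, had 0, 1, 26 and 5 counts, and of the mesenchymal transcription factor genes Twist1 had 6, 1, 7 and 3 counts, Prrx1 had 3, 0, 8 and 4, and Twist2 and Tcf21 had 1 each in all. Markers of pericytes and smooth muscle summed to 12.0, 15.3, 12.8 and 18.9 normalized CPM in female pools 1 and 2 and male pools 1 and 2, with Acta2 as the most read of 10. Endothelial markers summed to 43.8, 51.5, 44.8 and 39.3, with Pecam1 on top and Tie1 and Emcn at 0 counts in every pool.

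Thymocyte markers had their highest level in male pool 1 for 7 of 10 genes and in male pool 2 for 3. All 10 had a male mean above the female mean and 5 had both male pools above both female pools, against 56.3% and 11.7% of all genes with a count, and they summed to 425 and 339 normalized CPM in female pools 1 and 2 and to 1160 and 442 in male pools 1 and 2. The T cell receptor complex gene Cd3d had a log2 fold change by sex of 2.32 (standard error 0.55) and the coreceptor gene Cd8b1 of 1.1 (0.42), both with an unadjusted p under 0.05 and an adjusted p of 1. Lck, the list's gene with the most reads, had 124, 67.8, 278 and 50.4 normalized CPM in that order, and none of the 10 was at 0. Epithelial markers summed to 376, 650, 418 and 618 normalized CPM and mesothelial markers to 7.07, 27.2, 12.3 and 30.0 in the same order of pools, both higher in the pools of number 2, like Timp2. Dendritic cell and macrophage markers, with Lyz2 on top, summed to 2170, 3490, 1620 and 4560, and B cell markers, with Cd79a on top, to 4480, 2930, 3680 and 2460. The gate took CD45- cells, which should leave out blood cells, and Ptprc, the CD45 gene, had 280, 180, 304 and 219 normalized CPM in the same order. The part of any of these cells in the levels of the matrix genes was not tested.

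**Figure D4:**
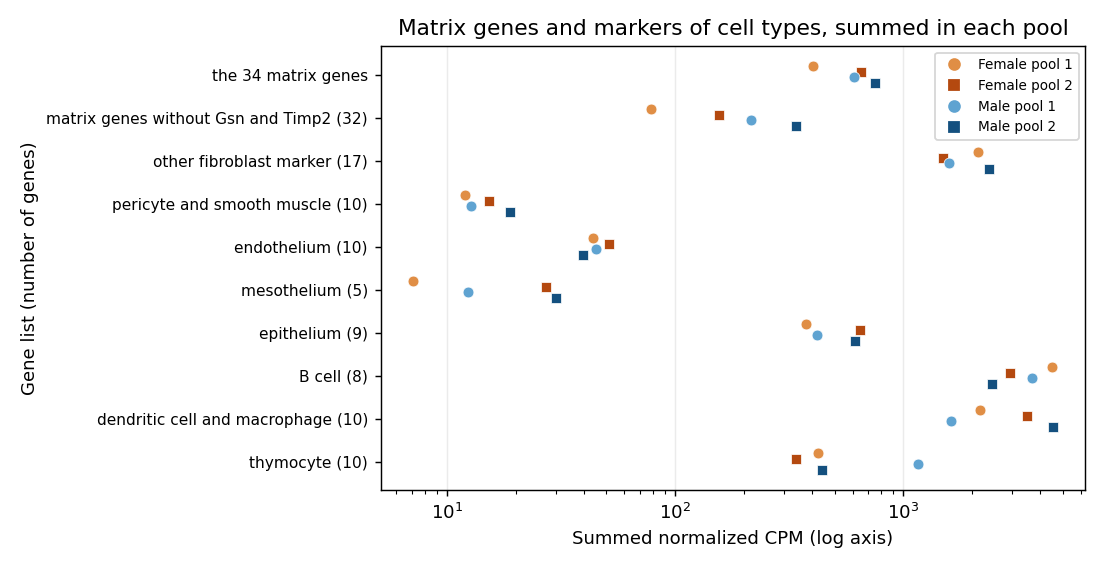
Summed normalized CPM of the matrix genes and of marker lists in each pool, on a log axis, with the number of genes in brackets. The 32 matrix genes without Gsn and Timp2 sum to 78.6 and 156 in the female pools against 215 and 340 in the male pools, and thymocyte markers are highest in male pool 1 at 1160.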

How the data were processed

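The authors removed low-quality reads with Trimmomatic, aligned the rest to mm9 with TopHat2 and deposited raw read counts per gene from HTSeq-count. Libraries were made from polyA RNA with the SMARTer Ultra Low kit v3, and no molecular identifiers are described. The versions, annotation and strand setting are not given in the sources used here. Between 66.9% and 70.2% of the rows' sum was not assigned to a gene and was left out of the library sizes.

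Males were compared with females, and pools numbered 2 with pools numbered 1, by edgeR 4.0.16 (quasi-likelihood test, TMM, filterByExpr with a minimum count of 10, prior count 0.125, Benjamini-Hochberg at 0.05 over 10865 genes, two-sided) in R 4.3.3, on all 4 pools without a covariate. Lengths and positions are from GENCODE on NCBIM37, in which all 34 genes were found. Alternatives were DESeq2 1.42.0, every gene kept, only genes above 1 CPM in 2 or more pools, upper-quartile normalization or library sizes alone, edgeR's exact test, a prior count of 2, pool number or sex as a term, and each pool left out. No pair of pools agreed within sampling noise. The chi-square per degree of freedom ran from 11 (female pool 1 with male pool 1) to 99.6 (male pool 1 with male pool 2). Nothing says that a pool is more than a separate sample, and p-values measure the spread between these pools only. Standard errors are the log2 fold change over the square root of F. All 34 genes are named with levels. Folds are given for tested genes only: the 8 with the highest mean normalized CPM, those with an unadjusted p under 0.05 in either fit and those whose sexes do not overlap. The members, lists and rules were chosen with earlier results of these data known.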

Additional observations from a re-analysis of the deposited data

Results flagged for a closer look

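Gsn and Col3a1 moved in opposite directions in parts of the design, each ratio by more than its counting error, and neither difference was tested. From pool 1 to pool 2, Gsn had a log2 ratio of normalized CPM of 0.36 in females and of -0.67 in males. Set by sex, its log2 ratio of male to female was 0.31 in pool 1 and -0.73 in pool 2. Col3a1 had a log2 ratio of pool 2 to pool 1 of 2.54 in females, from 16 and 5 counts, and of -0.93 in males, from 15 and 92 counts.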

How the results depend on the processing

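By edgeR's quasi-likelihood test between the sexes, 0 genes had an adjusted p under 0.05. This count was 5 on library sizes alone, 26 without a filter, 3 by DESeq2 and 8 by edgeR's exact test, and ran from 0 to 646 with a pool left out. Of the matrix genes, 0 passed, but 2 did with no filter (Mfap5 and Mgp) and 1 with the exact test (Mfap5), and 0 to 6 with a pool left out. With pool number as a replicate block, 17 genes and 3 matrix genes passed: Dcn, Mfap5 and Mgp, with adjusted p of 0.0446, 0.0138 and 0.0126 (over all alternatives 0.00282 to 1, 0.00162 to 1 and 1.79e-09 to 1). Both sexes carry the same pool numbers, and the difference between the numbers correlated at 0.519 over genes from females to males, but with only 2 pairs and nothing said about a common day or animal this is no pairing by design. The median log2 fold change of the matrix genes between the sexes, 0.773, ran from 0.848 to 1.634 with a pool left out. The 2 to 9 matrix genes that entered these fits passed the filter through a male pool alone, so these medians are not over the same genes. Why the median moved was not tested. The order of both male pools over both female pools, 13 genes, ran from 16 to 23 with a pool left out (chosen after seeing the data).

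Between pool numbers, 221 genes passed, and 764 did with library size only (376 higher and 388 lower, against 202 and 19), 1504 with no filter, 651 with DESeq2, 1138 with the exact test and 807 with sex as a term, and 174 to 2620 with a pool left out. The matrix genes past the threshold, 1, numbered 2, 5, 3 and 4 with library size only, no filter, the exact test and sex as a term, and 1 to 4 with a pool left out, and their median of 0.527 ran from -0.374 to 1.568. Signs turned with library size only for Timp3 by sex (-0.104) and for Mfap5 (-0.116) and Sparc (-0.299) by pool number, and with DESeq2 for Bgn by pool number (0.006). With a pool left out, log2 fold changes by sex ran from -0.662 to 1.301 for Timp2, -0.438 to 0.538 for Timp3, -0.568 to 0.123 for Gsn and -0.040 to 1.130 for Serpinf1. By pool number they ran from -2.071 to 2.467 for Mfap5, -0.680 to 1.469 for Sparc, -0.374 to 0.252 for Bgn, -0.502 to 0.193 for Gsn and -0.033 to 2.033 for Fbln1. The cause of these moves was not tested. Depth limits the test, as 20 of the 34 genes were too low for the test, and 4 had at most 3 counts in every pool.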

Other observations

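Fabp4, which encodes a fatty acid carrier of fat cells, macrophages and endothelium and was taken from the adipocyte marker list, had 10.3 and 30.7 normalized CPM in female pools 1 and 2 and 10.3 and 104 in male pools 1 and 2. It was higher in pool 2, with a log2 fold change of 2.72 (standard error 0.50, adjusted p = 0.0443, edgeR's quasi-likelihood test). The other adipocyte genes were low or absent: Adipoq had 6, 1, 9 and 6 counts, Cfd had 0, 0, 23 and 3, and Plin1 and Lep had 0 in every pool.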
